A study of Mus musculus with 6 samples.

Results

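The 40 genes described here encode proteins that copy DNA and supply its building blocks. They were taken as a list of symbols, and all 40 were found among the 56734 symbols of the count table. All 40 also had enough counts to be tested, out of 17718 genes tested. The RNA was poly(A)-selected from B16-OVA cells, a mouse B16 melanoma line that carries the model antigen ovalbumin, in 3 libraries of WT genotype and 3 libraries of Ythdf2-KO genotype. All were grown in the same medium, with no treatment named. The WT titles carry the tag gNC and the knockout titles gY2; whether either line is a single clone or a pool is not given in the sources used here. The same holds for whether the replicates were separate cultures, so p-values measure the spread between these libraries, which may be technical. YTHDF2 is a cytoplasmic reader of N6-methyladenosine that promotes decay of the mRNAs it binds, and the comparison asks how its loss alters tumor-cell mRNA.

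DNA replication starts when the origin recognition complex, CDC6 and CDT1 load the MCM2-7 helicase onto DNA in G1. In S phase, CDC45 and the GINS complex turn that ring into a moving helicase, polymerases follow with the PCNA clamp, and ribonucleotide reductase and thymidylate synthase feed them with deoxynucleotides. Most of these genes are transcribed in late G1 and S under E2F transcription factors, so their mRNA is widely read as a mark of cycling cells. In bulk RNA, fewer cells in S phase and less mRNA per cell cannot be told apart.

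Totals were 55660473 to 69497273 counts per library. Levels are TMM-scaled counts-per-million (CPM) and are listed in the order of the replicates. Ythdf2 itself gave 124, 124 and 125 CPM in WT, against 100.1, 101 and 104 CPM in the knockouts, a small fall of the mRNA that says nothing about the protein or the edited site. All 7 melanocyte markers were detected in every library and called higher in Ythdf2-KO, with summed levels of 237 to 241 CPM in WT, against 1401 to 1431 CPM in the knockouts. The 8 leukocyte markers summed to 30.0 to 31.5 CPM in WT, against 25.1 to 28.7 CPM in the knockouts, nearly all of it Cd68 and Lyz2; Cd3e had at most 8 counts in a library, and Ptprc, the pan-leukocyte gene, at most 6 except 74 in Ythdf2-KO replicate 3. Mitochondrially encoded RNA took 1.08 to 1.33% of the counts in WT and 1.57 to 1.82% in Ythdf2-KO. The part of these differences in the results below was not tested.

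Replication genes were lower in Ythdf2-KO almost throughout, by small amounts. Of the 40 members, 33 were called lower, 1 was called higher (Mcm2) and 6 did not pass (quasi-likelihood test of edgeR, adjusted p under 0.05 by Benjamini-Hochberg over all genes tested). The 33 are 82.5% of the members, against 25.8% of all genes tested that were called lower; the 1 higher member is 2.5%, against 24.1%. Among the 10493 genes whose WT level lay in the range spanned by the members, 37.0% were called lower. Fen1 alone set the lower end of that range, at a WT mean of 3.94 CPM, with Gins1 next at 18.2 CPM. A narrower range was not counted. The median log2 fold change of the members was -0.25, against -0.0053 over all genes tested, and 38 of the 40 estimates were below 0. Only Rrm2 changed by 1.5-fold or more; 39 members differed by less than that and 21 by less than 1.2-fold. In 34 members every Ythdf2-KO library lay below every WT library, an arrangement found in 28.9% of all genes tested. Together the 40 genes summed to 4137, 4176 and 4113 CPM in WT, against 3526, 3495 and 3576 CPM in the knockouts.

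**Figure D1:**
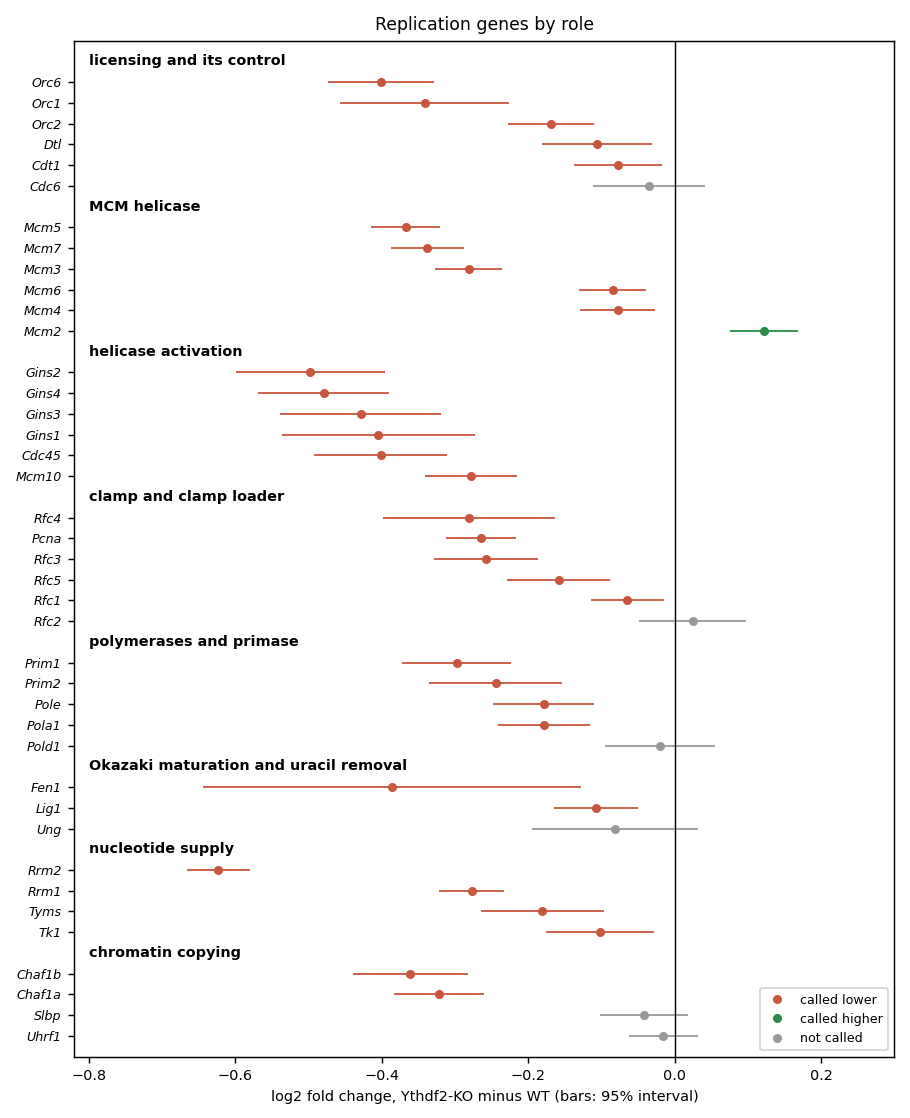
Log2 fold change of each of the 40 replication genes (Ythdf2-KO minus WT, x axis), grouped by role, with 95% intervals from edgeR's fit over 3 libraries per genotype. 33 genes lie below 0 and pass the test, Mcm2 alone lies above 0 and passes, and Rrm2, at -0.62, lies farthest to the left.

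The RefSeq promoters of these genes were also read for the words that E2F factors, NF-Y and the DREAM complex are known to bind. The shares of genes with a word describe which genes were listed and do not depend on the knockout. The table (GRCm38.p6; 250 bases before to 50 after each start) held 33 of the 40 members. The E2F words TTTGGCGC, TTTCCCGC, TTTGCCGC and TTTCGCGC, searched on both strands, occurred in 14 of the 33 (42.4%) and in 2.6% of all 27025 genes with a promoter in the table. The word CCAAT, the site of the factor NF-Y, occurred in 22 of the 33 (66.7%) and in 41.1% of all, and TTTGAA, the word of the cell-cycle homology region, in 4 of 33 (12.1%) and in 20.2% of all. The 27025 genes were not matched to the members in expression or GC content. The stretches below are upstream of the start and show the words of 3 MCM subunits that fell, of Mcm2, which rose and has no E2F word in this window, of Gins3 and Orc1, which fell, of Cdc6 and Uhrf1, which did not pass the test although they hold the word, and of Rrm2, which fell most and holds only CCAAT. Capitals mark the E2F words, or for Mcm2 and Rrm2 the words named beside them, and words can overlap. A CCAAT word of the other strand in the Mcm6 stretch and a TTTGAA word in the Gins3 stretch stand in lower case.
Mcm5 (chr8:75109336-75109387, plus strand): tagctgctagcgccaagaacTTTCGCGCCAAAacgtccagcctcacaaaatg
Mcm6 (chr1:128359725-128359835, minus strand): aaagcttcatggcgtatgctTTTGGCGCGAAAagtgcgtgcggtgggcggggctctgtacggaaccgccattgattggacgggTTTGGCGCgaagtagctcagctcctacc
Mcm7 (chr5:138172021-138172068, minus strand): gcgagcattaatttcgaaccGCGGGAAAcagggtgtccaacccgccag
Mcm2 (chr6:88898825-88898975, minus strand; CCAAT and TTTGAA words): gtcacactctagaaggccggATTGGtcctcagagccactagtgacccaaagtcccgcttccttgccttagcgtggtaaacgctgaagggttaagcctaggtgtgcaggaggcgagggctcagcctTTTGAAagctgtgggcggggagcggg
Gins3 (chr8:95633498-95633545, plus strand): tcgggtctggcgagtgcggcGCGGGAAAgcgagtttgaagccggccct
Orc1 (chr4:108579407-108579453, plus strand): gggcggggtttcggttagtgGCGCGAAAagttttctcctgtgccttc
Cdc6 (chr11:98907993-98908040, plus strand): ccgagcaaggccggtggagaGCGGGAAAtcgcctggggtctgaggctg
Uhrf1 (chr17:56304108-56304155, plus strand): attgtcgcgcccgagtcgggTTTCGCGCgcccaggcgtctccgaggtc
Rrm2 (chr12:24708184-24708228, plus strand; CCAAT word): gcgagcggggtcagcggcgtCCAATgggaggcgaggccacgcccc
The 14 members with an E2F word had a median log2 fold change of -0.14 (range -0.43 to -0.016), with 11 called lower. The 19 matched members without one had a median of -0.28 (range -0.62 to 0.12), with 16 called lower and 1 higher. A word in a promoter is a match of letters, not a shown site, and a promoter without these exact words can still hold one. The split therefore does not compare genes under E2F control with genes outside it. The 7 members without a promoter in the table are in neither group.

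Among the genes of origin licensing, 5 of 6 were lower and none higher. Orc6, which encodes a subunit of the origin recognition complex, fell most. It stood at 61.8, 60.8 and 65.0 CPM in WT, against 47.4, 45.8 and 48.8 CPM in the knockouts, a log2 fold change of -0.40 ± 0.036 (SE, n = 3 per group; edgeR adjusted p = 3.39e-13). Orc1, the ATPase subunit whose level rises in G1, fell 1.27-fold from 23.6 ± 1.86 to 18.7 ± 0.714 CPM (SD, n = 3), and Orc2 1.12-fold, from 94.5 ± 1.76 to 84.0 ± 1.74 CPM. Cdc6, which encodes the ATPase that completes the loading site, moved least and its groups overlapped: 45.2, 43.6 and 45.0 CPM in WT against 42.5, 43.2 and 44.8 CPM in the knockouts. Its difference had a 95% interval of -0.11 to 0.041 on the log2 scale. Cdt1, the loading partner of CDC6, fell 1.06-fold, and Dtl, which encodes the ubiquitin ligase receptor that marks CDT1 for destruction in S phase, 1.08-fold.

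The MCM2-7 ring, which is assembled from 1 copy of each subunit, did not move as a block. Mcm5 fell most, from 216, 220.3 and 211 CPM in WT to 167, 167 and 168 CPM in the knockouts. Mcm7 fell from 166, 173 and 169 CPM to 133, 133 and 136 CPM. Mcm3 fell from 232, 235 and 226 CPM to 189, 189 and 192 CPM. For these 3 subunits the libraries of the genotypes lay far apart, with falls of 1.29-, 1.26- and 1.22-fold (edgeR adjusted p = 4.73e-18, 6.66e-16 and 1.68e-14). Mcm4 and Mcm6 moved much less. Mcm4 stood at 159, 158 and 153 CPM in WT, against 146, 147 and 152 CPM in the knockouts, and Mcm6 at 285, 293 and 280 CPM in WT, against 272, 263 and 274 CPM in the knockouts. In both, the highest Ythdf2-KO library came within a few CPM of the lowest WT library.

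Mcm2 rose. It was at 192, 193 and 192 CPM in WT, against 206, 207 and 214 CPM in the knockouts, with no overlap, a log2 fold change of 0.12 ± 0.023 (SE, n = 3 per group; edgeR adjusted p = 1.60e-05). It was called higher in all 17 alternative fits, with log2 fold changes of 0.10 to 0.18 (adjusted p = 4.35e-09 to 0.0019). Set against the geometric mean of Mcm3 to Mcm7 in the same library, Mcm2 stood at 0.930, 0.915 and 0.946 in WT and at 1.17, 1.19 and 1.197 in Ythdf2-KO, so the ratio was 1.28-fold higher (exact permutation test over the 6 libraries, two-sided p = 0.1, the smallest that 3 against 3 can give; 0.2 after adjustment over 10 ratios).

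**Figure D2:**
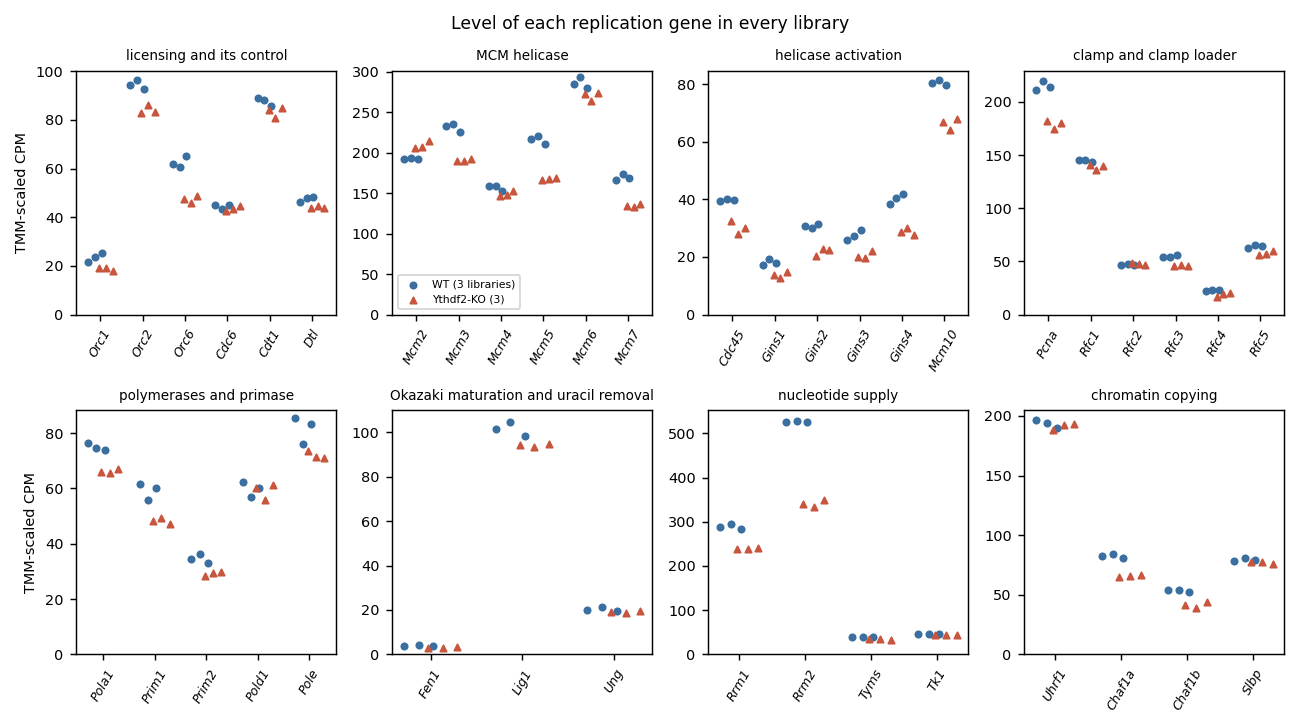
TMM-scaled CPM (y axis, from 0) of every replication gene in each of the 6 libraries, with WT as circles, Ythdf2-KO as triangles and 1 panel per role. The Mcm2 triangles lie above its circles, while those of Mcm3, Mcm5, Mcm7, Rrm2 and the 4 GINS genes lie clearly below theirs.

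All 6 genes that turn the loaded ring into an active helicase were lower. In the main fit each fell by more than 1.2-fold, which held for no other role. Mcm10 was close to that limit, at 1.21-fold. With upper-quartile factors its log2 fold change went from -0.28 to -0.22, which is less than 1.2-fold. Gins2 stood at 30.9, 29.9 and 31.6 CPM in WT, against 20.3, 22.6 and 22.5 CPM in the knockouts, a log2 fold change of -0.50 ± 0.050 (SE, n = 3 per group; edgeR adjusted p = 1.20e-11). The other GINS subunits, which bind the ring as 1 complex, also fell: Gins4 by 1.39-fold, Gins3 by 1.35-fold and Gins1 by 1.32-fold. Cdc45, which encodes the third part of the active helicase, fell 1.32-fold, from 39.8 ± 0.464 to 30.1 ± 2.16 CPM (SD, n = 3). Mcm10, which is needed for that helicase to start moving, fell least of the 6, from 80.3, 81.2 and 79.8 CPM in WT to 66.8, 64.2 and 67.9 CPM in the knockouts. In GRCm38 annotation, 67.3% of the exonic bases of Gins2 lie within exons of Gse1 on the other strand, and Gse1 fell too, from 53.6 ± 2.35 to 44.5 ± 0.5496 CPM; without a known strand setting, reads of the pair cannot be told apart.

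Of the sliding clamp and its loader, 5 of 6 genes were lower. Pcna, which encodes the clamp, fell 1.201-fold, from 211, 219 and 214 CPM in WT to 182, 174 and 180.3 CPM in the knockouts. The loader subunits fell by unequal amounts, and Rfc2 did not pass. Rfc4 fell from 22.0, 23.1 and 23.2 CPM to 16.8, 19.4 and 19.996 CPM, and Rfc3 from 54.3, 54.3 and 56.2 CPM to 45.6, 46.4 and 45.8 CPM. These are falls of 1.22- and 1.196-fold, with no overlap. Rfc5 went from 62.4, 65.5 and 64.3 CPM to 55.6, 56.6 and 60.1 CPM, and the large subunit gene Rfc1 from 146, 145 and 144 CPM to 140.3, 136 and 139.8 CPM. Rfc2 overlapped between the genotypes, at 47.0, 47.1 and 46.8 CPM in WT, against 48.8, 48.0 and 46.5 CPM in the knockouts, with a 95% interval of -0.049 to 0.098 for its log2 fold change.

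Polymerase and primase genes were lower in 4 of 5. Prim1, the catalytic primase subunit, fell most, from 61.6, 56.0 and 60.3 CPM in WT to 48.4, 49.2 and 47.0 CPM in the knockouts, which is 1.23-fold. Its partner Prim2 fell 1.18-fold, and Pola1, the polymerase that extends the primer, and Pole, the leading-strand polymerase, each fell 1.13-fold. Pold1, the lagging-strand polymerase, did not pass, at 62.4, 56.9 and 60.4 CPM in WT, against 60.01, 55.8 and 61.2 CPM in the knockouts; the interval of its log2 fold change was -0.096 to 0.055. Of the genes that finish lagging-strand fragments and remove uracil, Lig1, which encodes the ligase, fell 1.08-fold, while Ung, the uracil glycosylase gene, did not pass, at 19.96, 21.2 and 19.6 CPM against 19.3, 18.5 and 19.7 CPM.

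Fen1, which encodes the flap nuclease, was far below the rest, at 3.94, 4.14 and 3.75 CPM in WT, against 2.87, 2.87 and 3.31 CPM in the knockouts, a fall of 1.31-fold (edgeR adjusted p = 0.0101). Per kilobase of its principal transcript it had 1.66 CPM in WT, against 7.84 for Orc1, the next lowest of the 40. In GRCm38 annotation, 84.2% of its exonic bases lie within exons of the antisense gene Gm10143, which had 0.399 ± 0.190 CPM in WT, against 0.557 ± 0.134 CPM in the knockouts (SD, n = 3). Whether reads in that overlap were counted for either gene is not stated, so the level of Fen1 is uncertain.

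All 4 nucleotide supply genes were lower. Rrm2, the S-phase subunit of ribonucleotide reductase, was the most abundant member and fell most: 525, 527 and 526 CPM in WT against 340.3, 334 and 350.1 CPM in the knockouts. The gap between genotypes was many times the spread within them, with a log2 fold change of -0.62 ± 0.021 (SE, n = 3 per group; edgeR adjusted p = 5.87e-28), or 1.54-fold. Rrm1, which encodes the large subunit of the same enzyme, fell 1.21-fold, from 289 ± 5.92 to 239 ± 0.761 CPM (SD, n = 3). The Rrm2 to Rrm1 count ratio was 1.82, 1.78 and 1.85 in WT, against 1.43, 1.403 and 1.46 in Ythdf2-KO, without overlap (exact permutation test, two-sided p = 0.1, again the smallest possible; 0.2 adjusted). Tyms, which encodes the enzyme that makes thymidylate, fell 1.13-fold. Tk1, its salvage counterpart, fell least, from 46.4, 46.2 and 46.8 CPM to 43.6, 43.2 and 43.2 CPM.

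Genes that copy chromatin split in 2 pairs. Chaf1b, a subunit of the histone chaperone CAF-1, fell 1.28-fold, from 53.6, 53.8 and 52.5 CPM in WT to 41.4, 39.1 and 43.9 CPM in the knockouts. Its partner Chaf1a fell 1.25-fold, from 82.4 ± 1.63 to 65.9 ± 0.782 CPM (SD, n = 3); 52.5% of its annotated exonic bases lie within exons of genes on the other strand, mainly Ubxn6, which did not pass the test. Uhrf1, which guides DNA methylation to newly copied DNA, overlapped between the genotypes, at 197, 194 and 190.1 CPM in WT, against 189, 192 and 193 CPM in the knockouts. The interval of its log2 fold change was -0.063 to 0.031. Slbp, whose protein binds the stem-loop of histone mRNAs, had 79.3 ± 1.06 CPM in WT, against 77.1 ± 0.936 CPM in the knockouts and did not pass, although its libraries did not overlap.

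Of the 10 ratios compared within a library, 5 had no overlap between the genotypes. Besides the 2 above, Orc6 to Orc2 was 0.851 times its WT value, Orc1 to Orc2 0.890 times and Rfc1 to the mean of Rfc2 to Rfc5 1.07 times. Each had p = 0.1 by the exact permutation test. Without WT replicate 3, the Orc1 to Orc2 difference went from -0.17 to -0.10 on the log2 scale. It was -0.075 without replicate 3 of both genotypes. In GRCm38 annotation, 29.8% of the exonic bases of Orc2 lie within exons on the other strand, mainly those of Nif3l1. Nif3l1 fell too, with a log2 fold change of -0.19, so the level of Orc2 in both ratios is uncertain. The ratios Chaf1a to Chaf1b, Prim1 to Prim2, Gins2 to Gins3, Cdt1 to Cdc6 and Pcna to Fen1 overlapped (exact permutation p = 0.2 to 0.6). Since 3 libraries against 3 cannot give a p below 0.1, none of the 10 ratios could pass at 0.05, and the test does not separate these 5 from the others.

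**Figure D3:**
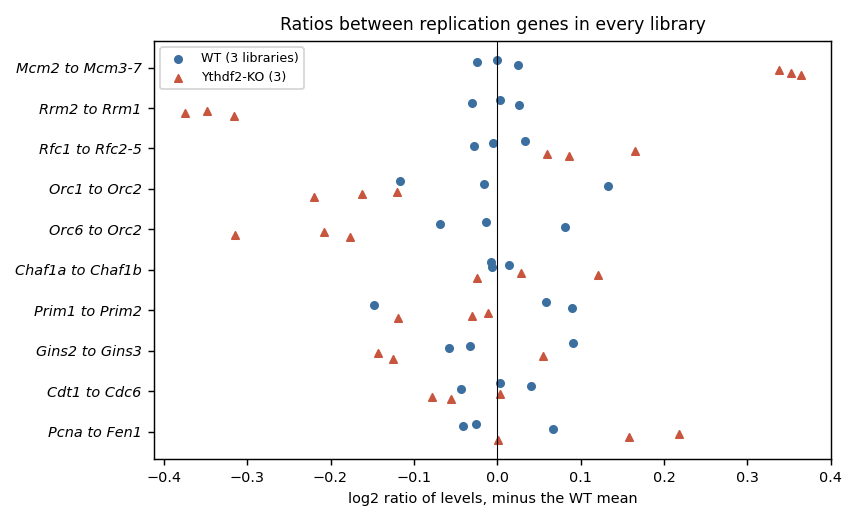
Log2 ratio between replication genes in each library, minus the WT mean of that ratio (x axis), for 10 ratios (rows), with WT as circles and Ythdf2-KO as triangles. Mcm2 to Mcm3-7 lies about 0.35 above WT and Rrm2 to Rrm1 about 0.35 below it, while the lower 5 rows overlap.

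Per kilobase of principal transcript, a rough scale for setting levels of different genes side by side, Rrm2 led with 239.9 CPM in WT, followed by Pcna with 141 and Mcm6 with 98.2. Which transcripts these cells use was not tested, and annotated exons can exceed the principal transcript. For Rrm1 that transcript has 3.997 kb, against 11012 exonic bases. In WT the ring subunits spanned 43.6 for Mcm4 to 98.2 for Mcm6, with Mcm7 and Mcm2 nearly level at 57.2 and 57.04. In Ythdf2-KO the same pair stood at 45.3 and 62.05. Gins1, Gins3 and Gins4 were lower than any ring subunit, at 10.95 for Gins3 to 29.8 for Gins4 in WT. Gins2 had 7.89, a level left uncertain by its overlap with Gse1.

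The calls of 28 members held their direction and their side of the threshold in all 17 alternative fits. Fen1 missed the stricter threshold of 0.01 and was too low to enter the fit at a mean of at least 5 CPM; it passed in the rest. The genes Cdc6, Pold1, Uhrf1 and Slbp, which did not pass, changed direction in some. The falls of Cdt1, Dtl, Mcm4, Mcm6, Rfc1, Lig1 and Tk1 did not pass with upper-quartile scaling, which moved the log2 fold change of all genes by a median of 0.054 (edgeR adjusted p = 0.518, 0.2497, 0.415, 0.216, 0.738, 0.0988 and 0.285). Over all alternatives their largest adjusted p was the same, except for Mcm4, where it was 0.468 with offsets for length and GC, and their smallest ran from 4.21e-04 for Dtl to 0.0276 for Rfc1. Leaving out 1 library ended the call of Cdt1 and of Rfc1 without WT replicate 1, WT replicate 2 or Ythdf2-KO replicate 2 (edgeR adjusted p = 0.108 to 0.161 and 0.116 to 0.148). It ended that of Mcm4 without WT replicate 1, WT replicate 2 or Ythdf2-KO replicate 1 (0.0646 to 0.0874), of Dtl without WT replicate 2 or 3 (0.0753 and 0.0708), and of Tk1 without WT replicate 1, 2 or 3 (0.0502 to 0.0609). Rfc1 and Cdt1 also missed with RLE factors (edgeR adjusted p = 0.0786 and 0.0591) and with DESeq2 (adjusted p = 0.0787 and 0.0829). Upper-quartile scaling left 26 members called lower and 1 higher, and over all genes it raised the share of calls that were higher from 48.3 to 59.2%.

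Genes of the same pathway outside the 40 were also lower more often than higher. Of 101 tested, 56 (55.4%) were lower and 16 (15.8%) higher, against 37.0% and 26.9% of the genes in the WT level range of the members, and the median was -0.10 on the log2 scale. Beyond the licensing members, 11 of 18 licensing and firing genes (61.1%) were lower and 3 (16.7%) higher. Dbf4, the activator of the CDC7 kinase, and Ticrr, which encodes the firing factor treslin, fell, with log2 fold changes of -0.32 and -0.42. Ddb1, the adaptor of the ligase that DTL serves, and Rif1, a regulator of replication timing, rose by 0.099 and 0.11. Of 8 further polymerase genes, which are accessory subunits and the separate primase-polymerase Primpol, 3 (37.5%) were lower and none was higher. That share is at the background of the same level range. Pole3 and Pola2 fell, at -0.36 and -0.17.

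Of 18 fork, clamp and maturation genes, 14 (77.8%) were lower and 2 (11.1%) higher, against 37.0% and 26.9% in the WT level range of the members. Top2a, the topoisomerase that untangles copied DNA, and Pclaf, a partner of PCNA, fell, with log2 fold changes of -0.31 and -0.29. The 2 that rose were Dna2, a nuclease and helicase that trims long flaps, and Rpa3, the smallest subunit of the single-strand binding protein. Dna2 stood at 10.1, 9.67 and 10.2 CPM in WT, against 15.5, 14.3 and 15.2 CPM in the knockouts, a log2 fold change of 0.59 ± 0.070 (SE, n = 3 per group; edgeR adjusted p = 7.06e-10). Rpa3, at 0.13, did not pass without WT replicate 3, Ythdf2-KO replicate 1 or Ythdf2-KO replicate 3 (edgeR adjusted p = 0.109, 0.254 and 0.0583; 0.0027 to 0.254 over its alternatives).

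Nucleotide synthesis and salvage genes other than the 4 members went both ways, with 11 of 27 (40.7%) lower, 7 (25.9%) higher and a median of -0.035 on the log2 scale. These shares are near the 37.0% and 26.9% of genes in the WT level range of the members, so the counts set this list apart in neither direction. Dut, which removes dUTP, fell, with a log2 fold change of -0.47. Cad, which encodes the first enzymes of pyrimidine synthesis, and Prps2, which makes the ribose precursor of all nucleotides, rose, with 0.21 and 0.32. Of 12 further genes of chromatin copying, 7 (58.3%) were lower and 1 (8.33%) higher. Ssrp1, a subunit of the histone chaperone FACT, and the histone acetyltransferase gene Hat1 fell by 0.33 and 0.28 on the log2 scale, and Uhrf2, the paralog of Uhrf1, rose by 0.38, from 16.9 ± 0.628 to 22.1 ± 0.164 CPM (SD, n = 3).

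The factors that control these genes went both ways, more often lower. Of 18 E2F, RB-family and DREAM complex genes, 10 (55.6%) were lower and 3 (16.7%) higher. Among genes in the WT level range of the members, the shares were 37.0% and 26.9%. The activator E2f1 fell from 88.6, 88.7 and 90.2 CPM in WT to 66.2, 66.3 and 68.6 CPM in the knockouts, and Mybl2, which acts later in the cycle, from 118 ± 2.47 to 89.1 ± 1.19 CPM (SD, n = 3). The genes that rose were E2f8 and E2f6, which encode repressors, and the activator E2f2, with log2 fold changes of 0.18, 0.22 and 0.16. Repressor genes did not move one way: E2f7, Rb1 and Rbl1 were called lower, with -0.12, -0.23 and -0.14. E2f4, E2f5 and Rbl2 did not pass. When replicate 3 of both genotypes was left out, E2f6 did not pass (edgeR adjusted p = 0.0514; 2.21e-05 to 0.0514 over its alternatives).

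**Figure D4:**
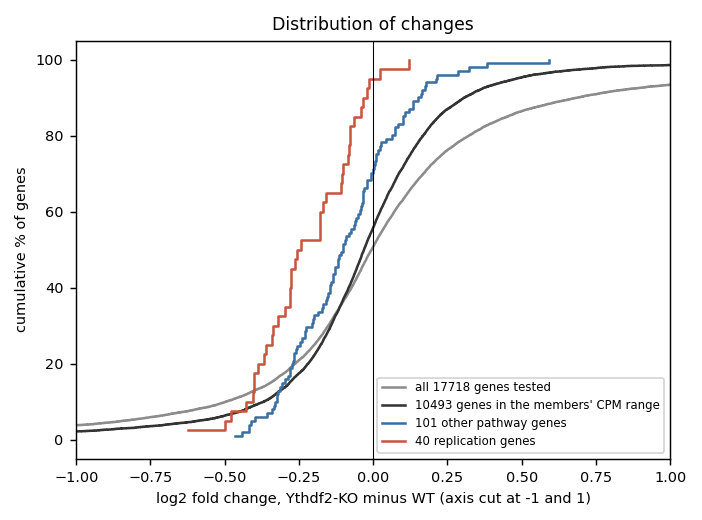
Cumulative percentage of genes (y axis) by log2 fold change (Ythdf2-KO minus WT, x axis, shown from -1 to 1) for all 17718 genes tested, the 10493 genes in the WT level range of the members, the 101 other pathway genes and the 40 members. The curve of the 40 members lies to the left of the others over most of its range, crosses those of the larger gene sets at about -0.4, and does not reach beyond -0.62 and 0.12.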

How the data were processed

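Polyadenylated RNA of 3 WT and 3 Ythdf2-KO libraries was read as paired ends. The deposited table holds raw, unscaled counts by gene symbol; per the submitters' processing notes, the authors used fastp 0.23.2, HISAT2 2.2.1, the build GRCm39 and featureCounts 2.0.6. No label or header gives the strand or multi-mapping settings.

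Counts were analysed across all genes in R 4.3.3 with edgeR 4.0.16: filterByExpr defaults, TMM factors of 0.981 to 1.02, robust quasi-likelihood test, Benjamini-Hochberg adjustment, called at an adjusted p under 0.05. Totals of 55660473 to 69497273 counts and a biological coefficient of variation of 3.48% set the precision. In simulated counts of this comparison, with 17718 genes in the fit, 66% of genes changed 1.2-fold were recovered, 82% at 1.5-fold and 100% at 2- and 4-fold, with 15 false calls. Few genes were changed in the simulation, drawn from levels that reached below every member, whereas 8839 genes were called in the data. The shares are therefore not recovery rates for the members. Replicates of a genotype differed by more than sampling noise (chi-square per degree of freedom 4.22 to 14.6) and by less than the genotypes (116 to 136).

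Ratios used an exact permutation test over libraries. Exon overlaps and principal transcript lengths came from GENCODE vM21, and promoters from RefSeq (both GRCm38), matched by symbol, and no coordinate was mixed with GRCm39. Alternatives were other scalings, filters, DESeq2 1.42.0, limma-voom 3.58.1, an adjusted p under 0.01, a replicate block, offsets for length and GC (94.4% of tested genes) and leaving out libraries. The members, lists, roles, ratios and the motif words were chosen with earlier results of these data known. Named were, per role, the members with the highest and the lowest fold change, the ring and clamp loader, members called higher, and per further list the 2 genes with the smallest adjusted p in each direction. E2f2 and other genes outside that rule were named after their values were seen. Some genes of the rule and of the marker lists are not reported here by name. Figures used Python 3.11.15 and matplotlib 3.10.9.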

Additional observations from a re-analysis of the deposited data

How the results depend on the processing

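Over 17 alternatives, the number of members called lower was 26 to 33, against 33, and 1 member (Mcm2) was higher in each; of the other pathway genes, 46 to 57 were lower, against 56, and 12 to 22 higher, against 16. Leaving out 1 library gave 28 to 33 members lower, 51 to 53 other genes lower and 13 to 17 higher. The median log2 fold change of the members, -0.25 in the main fit, was -0.18 with offsets for length and GC. It was -0.20 with upper-quartile factors. Over all genes in those fits the median was 0.023 and 0.049. Direction changed only among members that did not pass: with upper-quartile factors for Cdc6 (log2 fold change 0.019), Pold1 (0.034), Uhrf1 (0.038) and Slbp (0.012), with no filter for Pold1 (2.1e-04) and Uhrf1 (0.0045), at a mean of at least 5 CPM for Pold1 (0.0039) and Uhrf1 (0.0083), with offsets for length and GC for Uhrf1 (0.0027) and Slbp (0.0041), and for Pold1 without WT replicate 1 (0.014) or Ythdf2-KO replicate 2 (0.018), where leaving out 1 library gave -0.047 to 0.018. The Prim1 to Prim2 ratio also changed sign without replicate 3 of both genotypes (0.024); the cause was not tested. Same-numbered libraries did not deviate together (correlations of 0.011, -0.037 and -0.052), so the numbers were not taken as pairs; with the replicate block, 32 members were lower, Rfc1 being lost (edgeR adjusted p = 0.0529), 53 other pathway genes were lower and 16 higher, and the ratios kept their values, with a smallest possible exact p of 0.25. In simulated counts at this depth and spread, but with few genes changed, recovery was 66% at 1.2-fold and 82% at 1.5-fold. Smaller changes were not simulated. Fen1 was not in the fit at a mean of at least 5 CPM, so its call is missing from that count. Scaling factors cancel in the ratios.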
